A study of Mus musculus with 6 samples.

Results

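The 53 genes described here encode Wnt ligands, their Frizzled receptors and the proteins that modulate the signal between ligand and nucleus. They were chosen by gene symbol, with earlier results of these data known. The ligands and receptors are the 19 Wnt genes, 10 Frizzled (Fzd) receptors and the LRP co-receptors Lrp5 and Lrp6. The modulators are 4 R-spondins (Rspo), 9 secreted inhibitors of the Dkk, Sfrp and Wif families and 3 Dishevelled (Dvl) adaptors. The acyltransferase Porcn and the 5 genes Apc, Axin1, Axin2, Gsk3b and Ctnnb1 complete the set. They are 53 of the 19938 genes that the array measured with a probe set of 1 symbol, and the brightest probe set stood for a gene that had several.

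Wnt proteins are secreted lipid-modified ligands that bind a Frizzled receptor together with an LRP co-receptor. In the canonical branch, binding recruits Dishevelled and stops the destruction complex of Apc, Axin and Gsk3b from marking beta-catenin for degradation, so that beta-catenin enters the nucleus and drives transcription with TCF/LEF factors. In the hippocampus the pathway is known for patterning the structure in the embryo, for synapse assembly after birth and for the birth of granule neurons in the adult dentate gyrus.

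The hippocampus of male C57BL/6J mice was profiled at postnatal day (PD) 70 with Affymetrix Mouse Gene ST arrays. Ethanol-exposed mice had received 2 subcutaneous injections on each of PD4 and PD7, with a dose of 2.5 g/kg and 0.15 M NaCl as the solvent, and control mice had received saline at the same times. Each array held RNA pooled from 3 non-littermate mice, with 3 ethanol pools and 3 saline pools, so that each group stands for 9 mice and the spread between arrays is a spread between pools. The comparison addressed whether exposure as a pup left a difference in transcript levels in the adult.

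The deposited values are log2 levels, in which a difference of 0.263 is a 1.2-fold change, and their median lay between 5.84 and 5.89 on the 6 arrays. The 10 hippocampal neuron markers all had means of 9.17 or more, and their mean differed from that of the saline pools by 0.01, 0.02 and -0.07 in ethanol pools 1, 2 and 3. Single markers varied more. Prox1 read 9.96, 9.93 and 9.57 in ethanol pools, against 9.87, 9.80 and 9.86 in saline pools. Zbtb20 was also lowest in ethanol pool 3 (11.01), while Neurod6 was highest there (10.98). The list means of neighbouring tissue were less even. Relative to the saline mean, 14 thalamus markers averaged 0.77, 0.27 and 0.13 in ethanol pools 1, 2 and 3, against -0.01 to 0.01 in the saline pools, and 10 of the 14 were higher at an unadjusted p under 0.05 (9 without ethanol pool 1). Over all genes, 2.8% were higher at this threshold. The list holds Vipr2 and Synpo2, which the paper reported as raised by ethanol on the same arrays, so part of the count was known beforehand. The paper also found both raised by droplet digital PCR on the same samples. The mean of 13 choroid plexus markers was 1.08, -0.29 and 0.65 in ethanol pools 1, 2 and 3, against -0.17 to 0.19 in the saline pools, with 3 of the 13 higher. That count was 0 without ethanol pool 1 or 3 or without saline pool 1 or 2, and 13 without ethanol pool 2. Ethanol pool 1 was thus the highest pool in both lists, and ethanol pool 2 the lowest in the choroid plexus list. Results that rest on ethanol pool 1 are given with and without it. In RNA from whole tissue, fewer cells of a type and less RNA per cell cannot be told apart.

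Signal just above the array's floor was marked with the genes of olfactory and vomeronasal receptors. The 95th percentile of their means, 5.37, is called the receptor level below. Of the 53 genes, 34 lay above it and 19 below, among them 12 of the 19 Wnt ligands.

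Few of the 53 genes differed between ethanol and saline pools. At an unadjusted p under 0.05 in limma, 3 of the 53 genes were higher in ethanol pools and 0 were lower. Over all 19938 genes the same threshold called 2.8% higher and 2.41% lower, so that the 5.66% called here lay close to the 5.22% called overall. The 3 genes, Wnt16, Wnt2b and Wnt8a, are ligands that lay below the receptor level, and 0 of the 34 genes above it passed. Over all genes, 4.7% were called above the receptor level and 6.08% below it, against 15.8% (3) of the 19 genes below it here. Genes below the level leaned higher as a whole, with 317 called higher and 139 lower. Above the level, 242 were called higher and 342 lower. After Benjamini-Hochberg adjustment over all probe sets tested with limma, 0 of the 53 passed, as did 0% of all genes, and the lowest adjusted p was 0.931. Ethanol and saline pools did not overlap for 4 of the 53 (7.55%), against 10.4% of all genes: Wnt2b and Wnt8a were above saline in every pool, and Wnt6 and Apc below it.

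The differences were small. The median change, ethanol minus saline, was 0.0007 on the log2 scale over the 53 genes and 0.0001 over all genes, with 27 of the 53 changes positive and 26 negative. Changes ran from -0.13 for Dkk2 to 0.18 for Wnt16. The 95% confidence interval lay within a 1.2-fold change either way for 48 of the 53 (90.6%), against 92% of all genes, and for 32 of the 34 genes above the receptor level. The 5 genes whose interval reached further were Wnt16, Wnt3, Fzd4, Dkk2 and Sfrp1.

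**Figure D1:**
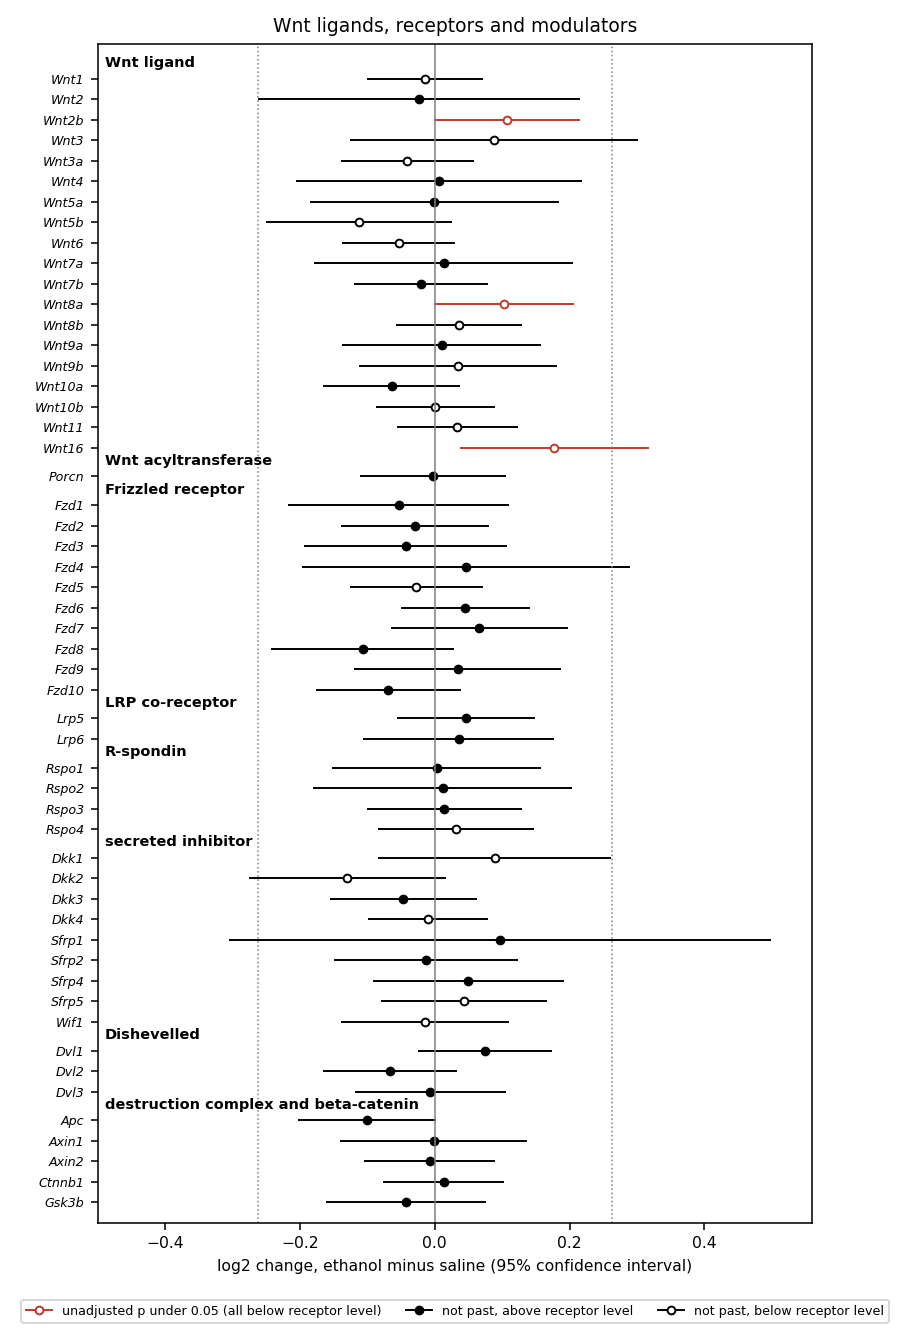
Log2 change, ethanol minus saline, of each of the 53 genes by role, with its 95% confidence interval from limma (3 pools in each group). Filled points lie above the receptor level, open points below it, red marks the 3 genes at an unadjusted p under 0.05, and dotted lines mark a 1.2-fold change, within which 48 of the 53 intervals lie.

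Among the ligands, Wnt16, best known from bone, had the largest change. Its level was 4.95, 5.13 and 5.04 in ethanol pools 1, 2 and 3, against 4.96, 4.82 and 4.81 in saline pools 1, 2 and 3. Ethanol pool 1 lay below saline pool 1, so the groups overlapped. The change was 0.18 with a standard error (SE) of 0.061, a 1.13-fold difference with an interval of 1.03 to 1.25 (unadjusted p = 0.0179). It was 0.13 without ethanol pool 2, 0.16 without saline pool 2 and 0.15 without saline pool 3, and did not pass in these cases.

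Wnt2b, a ligand of the canonical branch, read 4.52, 4.43 and 4.54 in ethanol pools, against 4.42, 4.33 and 4.41 in saline pools. Every ethanol pool was above every saline pool, though ethanol pool 2 (4.426) and saline pool 1 (4.420) nearly met. The change of 0.11 (SE 0.047, unadjusted p = 0.0498) passed in only 1 of the 6 fits that left out a pool, that without ethanol pool 2, where it was 0.14. Without each of the other pools it lay between 0.08 and 0.12 and did not pass. Wnt8a, a ligand of the early embryo's posterior axis, had values of 4.42, 4.32 and 4.35 in ethanol pools and of 4.31, 4.24 and 4.23 in saline pools. The groups did not overlap, though ethanol pool 2 and saline pool 1 were close. Its change of 0.10 (SE 0.045, unadjusted p = 0.0498) passed in 2 of the 6 such fits, without ethanol pool 2 or saline pool 1 (0.13 in both), and lay between 0.07 and 0.11 in the other 4.

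The windows of 250 bases before the transcription start were read for the genes that RefSeq's promoter table held, in build GRCm38.p6. They are shown for Wnt16 (chr6:22287977-22288226, plus strand) and Wnt2b (chr3:104961710-104961959, minus strand), as the passing ligands whose windows contain the CCAAT box, a common promoter element, which is in capitals.
Wnt16: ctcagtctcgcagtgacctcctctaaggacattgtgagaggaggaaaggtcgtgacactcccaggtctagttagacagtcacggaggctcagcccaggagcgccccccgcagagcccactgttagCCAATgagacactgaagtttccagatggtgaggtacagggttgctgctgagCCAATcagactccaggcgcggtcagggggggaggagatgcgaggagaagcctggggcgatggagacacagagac
Wnt2b: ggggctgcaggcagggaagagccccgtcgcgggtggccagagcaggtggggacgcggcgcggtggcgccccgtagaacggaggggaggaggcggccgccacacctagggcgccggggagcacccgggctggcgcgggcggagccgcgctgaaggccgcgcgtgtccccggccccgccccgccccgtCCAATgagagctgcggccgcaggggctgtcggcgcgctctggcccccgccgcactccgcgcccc
In Wnt16 the element begins 125 and 74 bases before the start, and in Wnt2b 64 bases before it. The letters CCAAT, on either strand, occur in 12 of the 38 windows of the 34 genes that matched (31.6%) and in 33.8% of 32851 windows over all genes.

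Of the 16 other ligands, 0 passed in limma. Wnt6 had the tightest replicates, at 4.58, 4.56 and 4.56 in ethanol pools and 4.63, 4.62 and 4.61 in saline pools. The groups did not overlap, but the difference was only -0.05. It did not pass in limma (unadjusted p = 0.176), whereas it was the only gene of the 53 to pass in the methods' t-test, which takes each gene's spread alone. Wnt5b, which signals mainly outside the canonical branch, had a change of -0.11 (unadjusted p = 0.094), with 4.97, 4.88 and 4.79 in ethanol pools and 5.06, 4.90 and 5.02 in saline pools; the groups overlapped. Its change was -0.16 and passed without ethanol pool 1 or without saline pool 2.

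The ligands above the receptor level were Wnt2, Wnt4, Wnt5a, Wnt7a, Wnt7b, Wnt9a and Wnt10a. Wnt7a and Wnt7b, which direct vessel formation and barrier properties in the brain and act at synapses, had changes of 0.013 (SE 0.084) and -0.02 (SE 0.043). Wnt5a, the main ligand of the noncanonical branch in neurons, had a change of -0.0005 (SE 0.080), with an interval of 0.881-fold to 1.13-fold. The change was -0.06 for Wnt10a, 0.01 for Wnt9a and 0.0064 for Wnt4. Wnt4 is the only 1 of the 53 with a further single-symbol probe set, which was dimmer and had a change of 0.16 (unadjusted p = 0.0753), so the probe sets of this gene disagree in size. For Wnt2 the pools differed more than the groups: ethanol pools read 6.11, 6.46 and 6.13 and saline pools 6.19, 6.42 and 6.16. Pool 2 was highest in each group, and the mean of 7 habenula markers was also highest there, at 0.46 in ethanol pool 2 and 0.36 in saline pool 2, against -0.23 to 0.01 in the other 4 pools. The part of these cells in the Wnt2 values was not tested.

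The remaining ligands lay below the receptor level with changes between -0.04 and 0.09, and 0 passed. They were Wnt1, a patterning signal of the midbrain; Wnt3 and Wnt3a, of which Wnt3a is needed for the hippocampus to form; Wnt8b, a ligand of the cortical hem; and Wnt9b, Wnt10b and Wnt11. At such dim signal the intervals bound the signal of the array and not the ratio of transcripts.

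Porcn, the enzyme of the endoplasmic reticulum that attaches the lipid every Wnt needs for secretion, read 9.83, 9.87 and 9.97 in ethanol pools, against 9.90, 9.92 and 9.86 in saline pools. The groups overlapped fully. The change was -0.003 (SE 0.047), with an interval of 0.927-fold to 1.07-fold.

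Of the 10 Frizzled receptors, 0 passed in either direction, and 9 lay above the receptor level. The largest change was that of Fzd8, a receptor of canonical ligands, at 6.34, 6.14 and 6.22 in ethanol pools and 6.29, 6.41 and 6.32 in saline pools. Ethanol pools 2 and 3 lay below all saline pools, and ethanol pool 1 did not. The change was -0.11 (SE 0.059, unadjusted p = 0.103), and -0.16 without ethanol pool 1, where it passed (unadjusted p = 0.0234). Fzd3 and Fzd6, which guide axons and planar polarity, had changes of -0.04 and 0.05. For Fzd9, a receptor found in hippocampal neurons, the change was 0.03. It was 0.07 for Fzd7, -0.05 for Fzd1, -0.03 for Fzd2, -0.03 for Fzd5 and -0.07 for Fzd10. Fzd4, the receptor for norrin in vessels, is described with the variable genes.

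Neither co-receptor passed. Lrp6 read 9.04, 8.88 and 8.83 in ethanol pools, against 8.90, 8.81 and 8.93 in saline pools, and the groups overlapped. Its change was 0.04 (SE 0.061), within 0.93-fold and 1.13-fold. Lrp5 had 6.83, 6.74 and 6.81 in ethanol pools and 6.70, 6.78 and 6.76 in saline pools. Ethanol pools 1 and 3 were the highest, with a change of 0.05 (SE 0.044, unadjusted p = 0.321).

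R-spondins potentiate Wnt signalling by keeping Frizzled receptors at the cell surface. Their 4 changes were between 0.0031 for Rspo1 and 0.03 for Rspo4. Rspo4, the only 1 below the receptor level, read 4.21, 4.17 and 4.27 in ethanol pools and 4.22, 4.23 and 4.10 in saline pools, which overlapped. Rspo2 and Rspo3 had changes of 0.01 each, with intervals of 0.883-fold to 1.15-fold and 0.933-fold to 1.09-fold.

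Secreted inhibitors act either on LRP co-receptors, as Dkk1, Dkk2 and Dkk4 do, or on the ligands, as Sfrp proteins and Wif1 do. None of the 9 passed in limma at an unadjusted p under 0.05. Dkk2 had the largest change, at 4.38, 4.54 and 4.59 in ethanol pools, against 4.66, 4.55 and 4.69 in saline pools. Ethanol pool 1 was lowest, and ethanol pool 3 lay above saline pool 2. The change was -0.13 (SE 0.064, unadjusted p = 0.0734), and -0.17 and past the threshold without ethanol pool 3 (unadjusted p = 0.0374) or without saline pool 2 (unadjusted p = 0.0348). Dkk2 lay below the receptor level, as did Dkk1, Dkk4, Sfrp5 and Wif1. Dkk1, an inhibitor that limits adult neurogenesis, had a change of 0.09 (SE 0.075, unadjusted p = 0.27), Dkk4 and Wif1 of -0.01 each and Sfrp5 of 0.04. Dkk3, a divergent Dkk family member, had a change of -0.05 (SE 0.047), with an interval of 0.899-fold to 1.04-fold. The change was -0.01 for Sfrp2 and 0.05 for Sfrp4. Sfrp4 passed only when saline pool 3 was left out (0.12, unadjusted p = 0.0405).

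Dkk1 is itself a known target of beta-catenin, and its window of 250 bases (chr19:30549497-30549746, minus strand, GRCm38.p6) is shown because it holds the core of the TCF/LEF motif on both strands, CTTTGA and TCAAAG, in capitals.
Dkk1: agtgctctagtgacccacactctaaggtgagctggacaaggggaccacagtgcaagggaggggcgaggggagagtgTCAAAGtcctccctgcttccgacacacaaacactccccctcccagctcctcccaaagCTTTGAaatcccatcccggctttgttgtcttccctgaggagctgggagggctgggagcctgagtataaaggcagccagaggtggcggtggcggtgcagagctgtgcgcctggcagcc
The motif begins 174 and 117 bases before the start. It was found in 5 of the 38 windows (13.2%), those of Dkk1, Fzd1, Gsk3b, Wnt11 and Wnt5b, and in 13.8% of the 32851 windows, and the changes of these 5 genes had both signs, with 0 past the threshold.

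Dishevelled relays the signal from the receptors. Dvl1 read 8.51, 8.59 and 8.61 in ethanol pools, against 8.49, 8.47 and 8.52 in saline pools. Ethanol pools 2 and 3 were highest, and ethanol pool 1 lay within the saline pools. The change was 0.07 (SE 0.043, unadjusted p = 0.12), and 0.10 at the edge of the threshold without ethanol pool 1 (unadjusted p = 0.04999). The change was -0.07 for Dvl2 (unadjusted p = 0.158) and -0.0064 for Dvl3 (unadjusted p = 0.898), so the 3 paralogues differed in sign.

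In the destruction complex, Apc, the scaffold that helps hold beta-catenin for degradation, came closest to the threshold. It read 11.05, 10.99 and 10.93 in ethanol pools, against 11.09, 11.06 and 11.12 in saline pools. All 3 ethanol pools lay below all 3 saline pools. The change was -0.10 (SE 0.044, unadjusted p = 0.0516, adjusted p = 0.931 in limma), a level of 0.933-fold with an interval of 0.87 to 1.001. Without ethanol pool 1 the change was -0.13 and passed (unadjusted p = 0.0288), and without ethanol pool 3 it was -0.07 and did not (unadjusted p = 0.161). An exact permutation test of 3 against 3 pools cannot give a p below 0.1, so separation of the pools alone passes no threshold.

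The other 4 genes of the group had smaller changes. Gsk3b, the kinase of the complex, had 11.17, 11.11 and 11.02 in ethanol pools and 11.21, 11.10 and 11.13 in saline pools, overlapping, with a change of -0.04 (SE 0.052) and an interval of 0.895-fold to 1.05-fold. Axin1, the limiting scaffold, had a change of -0.0018 (SE 0.060). Ctnnb1, which encodes beta-catenin, read 11.58, 11.57 and 11.53 in ethanol pools and 11.52, 11.57 and 11.56 in saline pools. These 6 values were interleaved, and the change was 0.013 (SE 0.039), within 0.949-fold and 1.07-fold. The array measured transcripts, whereas the pathway sets beta-catenin mainly through protein stability.

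Axin2 is the classic transcriptional readout of canonical signalling. It had 7.13, 7.19 and 7.10 in ethanol pools, against 7.18, 7.15 and 7.12 in saline pools, with ethanol pools both highest and lowest. The change was -0.0078 (SE 0.042, unadjusted p = 0.857), with an interval of 0.931-fold to 1.06-fold.

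**Figure D2:**
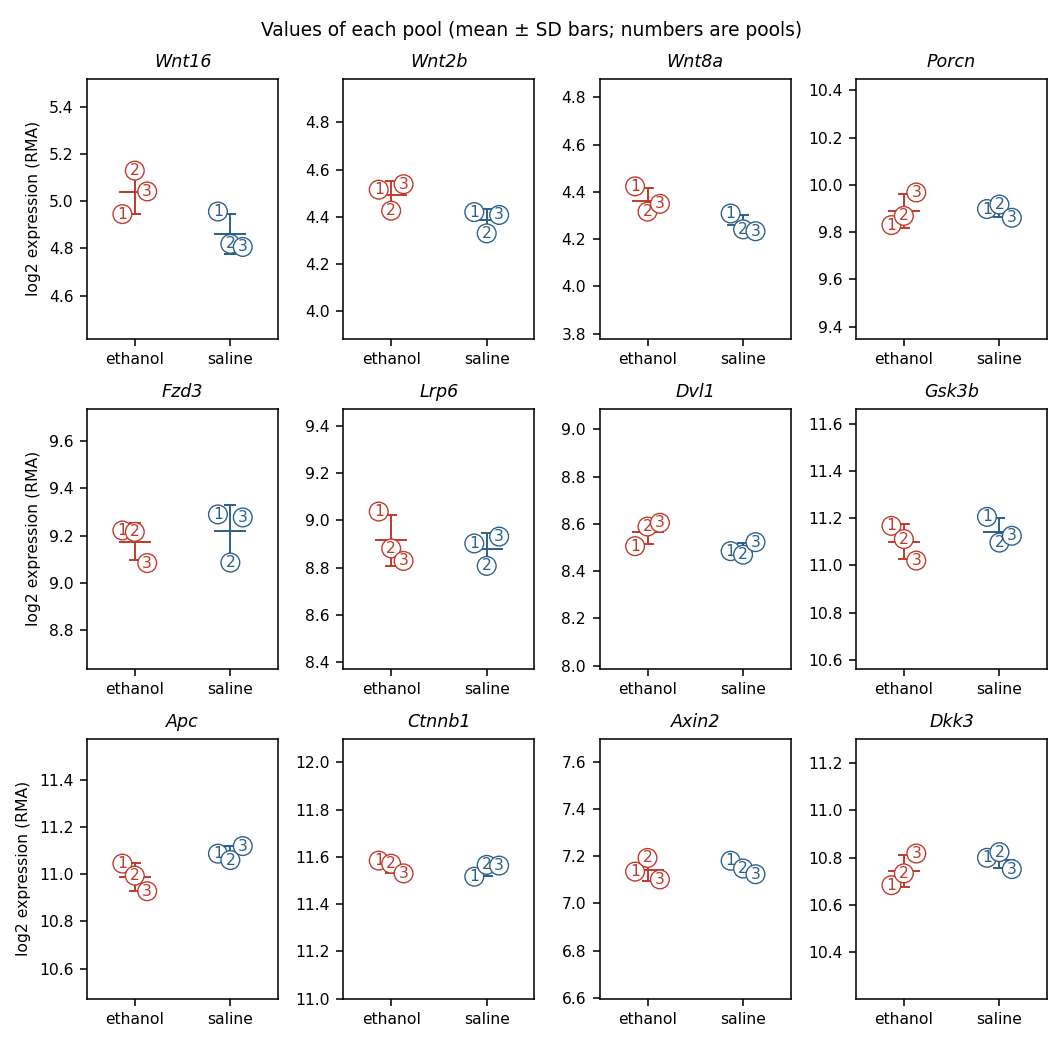
Log2 level in each pool (circles with the pool's number) of the 3 ligands at an unadjusted p under 0.05 and of Porcn, Fzd3, Lrp6, Dvl1, Gsk3b, Apc, Ctnnb1, Axin2 and Dkk3, with ethanol left of saline and bars for the mean and SD; all panels span the same range of log2 units. Pools of the groups separate for Apc, Wnt2b and Wnt8a and overlap for the others, and Ctnnb1 differs by 0.013.

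Sfrp1, Fzd4 and Wnt3 varied more between ethanol pools than between saline pools, and were singled out after their values were seen. Sfrp1, a soluble inhibitor with a Frizzled-like domain, read 7.81, 6.96 and 7.48 in ethanol pools, against 7.25, 7.35 and 7.35 in saline pools. Ethanol pools spanned 0.853 and saline pools 0.097, and the ethanol pools held both the highest and the lowest value. The change was 0.10 (SE 0.176, unadjusted p = 0.594). It was 0.33 and passed without ethanol pool 2 (unadjusted p = 0.00787), and -0.10 without ethanol pool 1 (unadjusted p = 0.476), so that 1 pool set its direction.

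Fzd4 read 7.37, 6.98 and 6.92 in ethanol pools, against 6.99, 7.06 and 7.09 in saline pools. Ethanol pool 1 was the highest, and the other 2 ethanol pools were the lowest. The change was 0.05 with all pools and -0.09 without ethanol pool 1. Wnt3, which drives neuronal fate in the adult dentate gyrus, had 5.08, 4.66 and 4.80 in ethanol pools and 4.72, 4.76 and 4.80 in saline pools. Its change was 0.09, and -0.03 without ethanol pool 1. Ethanol pools spanned more than 0.4 for these 3 of the 53 genes (5.66%) and for 1.6% of all genes. That cutoff lies between the spans of Wnt3 (0.418) and Wnt2 (0.354), and the genes were picked by their values, so these shares are no test. The median span in ethanol pools was 0.127 over the 53 genes and 0.105 over all genes, and in saline pools 0.104 and 0.103.

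Beside these values stand those of the choroid plexus list, which was at 1.08, -0.29 and 0.65 in ethanol pools 1, 2 and 3. The ethanol pools had the same order in Sfrp1 and Wnt3, and in Fzd4 pool 1 was also highest but pool 3 lowest. The 12 markers of meninges and fibroblasts averaged 0.23, -0.11 and 0.15 in these ethanol pools, against -0.07 to 0.13 in the saline pools. Sostdc1, a secreted antagonist of Wnt and BMP signals from the list of other pathway genes, read 10.27, 8.98 and 9.77 in ethanol pools and 9.05, 9.18 and 9.29 in saline pools, with the order of Sfrp1. Its change of 0.50 (SE 0.264, unadjusted p = 0.0926 in limma) was the largest in that list and did not pass. The interval was 0.931-fold to 2.15-fold. The part of neighbouring tissue in these differences was not tested.

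**Figure D3:**
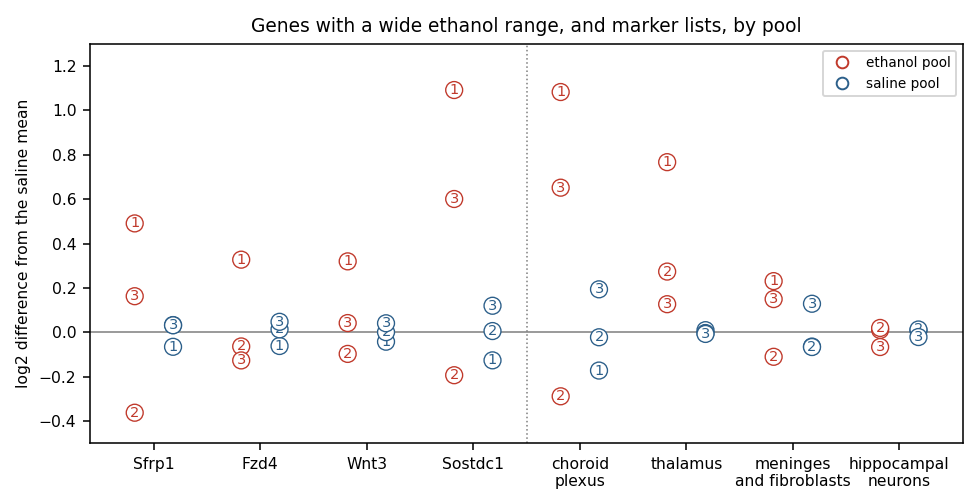
Log2 difference of each pool (numbered circles) from the saline mean, with ethanol left of saline, for Sfrp1, Fzd4, Wnt3 and Sostdc1 and, right of the dotted line, for the mean of 4 marker lists. Sfrp1 spans 0.853 in ethanol pools and 0.097 in saline pools, and Fzd4 and Wnt3 are highest in ethanol pool 1.

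Another 67 genes of the pathway that the symbol rule did not include were listed by function, without the TCF/LEF factors, and all 67 were measured. At an unadjusted p under 0.05 in limma, 1 was higher and 2 were lower (4.48%, against 5.22% of all genes), and 0 passed after adjustment. Draxin, a secreted axon repellent that binds Lrp6, lay below the receptor level at 4.92, 5.03 and 5.04 in ethanol pools, against 5.12, 5.16 and 5.12 in saline pools. The groups did not overlap, and the change was -0.14 (unadjusted p = 0.0149), or -0.10 without ethanol pool 1, where it did not pass. Celsr1, a cadherin of planar polarity, lay above the receptor level and had 6.26, 6.23 and 6.22 in ethanol pools and 6.43, 6.31 and 6.36 in saline pools. Again every ethanol pool was lower, by a change of -0.13 (unadjusted p = 0.0155), a 0.913-fold level with an interval of 0.853 to 0.978. Without saline pool 1 it was -0.10 and did not pass. Celsr1 was 1 of 11 planar polarity genes, of which the other 10 did not pass. Sost, an antagonist of LRP co-receptors best known from bone, lay below the receptor level with 5.08, 5.24 and 4.95 in ethanol pools and 4.94, 4.96 and 4.85 in saline pools. The groups overlapped, and the change was 0.17 (unadjusted p = 0.0422). It passed in 1 of the 6 fits with a pool left out, that without ethanol pool 3 (0.24), and was 0.10 without ethanol pool 2.

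By function, 0 of 2 secretion genes, 0 of 5 R-spondin receptors and ligases, 0 of 7 other receptors and co-receptors, 0 of 16 cytoplasmic regulators, 0 of 8 nuclear partners of beta-catenin and 0 of 8 genes of the calcium branch passed at the unadjusted threshold. The 10 other secreted modulators held Draxin and Sost. Their median changes ran from -0.05 for the other receptors to 0.02 for the calcium branch.

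Genes that beta-catenin and TCF are known to drive were read as a last group. Of 16 listed, 15 were measured, 2 of which (Axin2 and Dkk1) are also among the 53 genes. Another 6, with Rnf43 among them, are also in the list of other pathway genes. At the unadjusted threshold 2 were higher and 1 was lower (20%, against 5.22% of all genes), and 0 passed after adjustment. Pools did not overlap for 4 of the 15 (26.7%, against 10.4% of all genes), namely Myc, Neurod1, Sp5 and Rnf43. The list was made with earlier results of these data known, so these shares describe it and test nothing. Without saline pool 2, only 1 of the 15 passed. Myc, a growth regulator, read 6.67, 6.77 and 6.78 in ethanol pools, against 6.59, 6.49 and 6.56 in saline pools. The groups did not overlap, with a change of 0.19 (SE 0.048, unadjusted p = 0.00348, adjusted p = 0.931 in limma), and it passed without any 1 of the 6 pools. Lef1, itself a TCF/LEF factor and found in the thalamus of adult rodents, had 6.33, 6.12 and 5.89 in ethanol pools and 5.92, 5.78 and 5.82 in saline pools. Ethanol pool 3 lay below saline pool 1, and the change was 0.27 (unadjusted p = 0.0247). It was 0.16 without ethanol pool 1, 0.27 without ethanol pool 2, 0.24 without saline pool 2 and 0.26 without saline pool 3, and did not pass in these cases. Its ethanol pools had the order of the thalamus markers (0.77, 0.27 and 0.13), whose part in it was not tested. Neurod1, a factor of new granule neurons, read 9.402, 9.387 and 9.218 in ethanol pools and 9.495, 9.574 and 9.424 in saline pools, with no overlap and a change of -0.16 (unadjusted p = 0.0285). Without ethanol pool 3 it was -0.10, without saline pool 1 -0.16 and without saline pool 2 -0.12, and it did not pass. The other 12 targets, Axin2 among them, did not pass, and their directions were mixed.

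**Figure D4:**
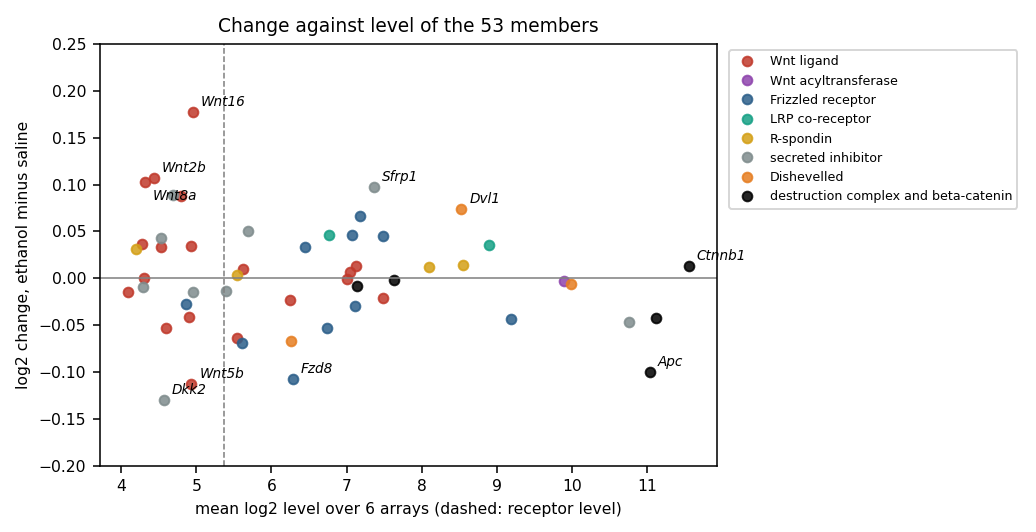
Log2 change, ethanol minus saline, of each of the 53 genes against its mean log2 level over the 6 arrays, coloured by role, with the receptor level of 5.37 as a dashed line. The 3 genes at an unadjusted p under 0.05 (Wnt16, Wnt2b and Wnt8a) lie left of the line, and Ctnnb1, Gsk3b and Porcn lie near 0 on its right.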

How the data were processed

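The values are log2 levels that the authors had computed with RMA, and they were taken as deposited. Neither its software nor the build behind the array's annotation is given in the sources used here. A gene symbol was attached to 23410 of 35556 probe sets, to 21789 of them 1 symbol, and these 23410 entered the test; a probe set of several symbols stood for no gene. All 53 symbols matched a RefSeq gene of GRCm38.p6.

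Ethanol was compared with saline by two-sided moderated tests without a covariate (limma 3.58.1, lmFit with eBayes, run in R 4.3.3), after the ANOVA of the methods, whose 2-group form is called the methods' t-test. P-values were adjusted by Benjamini-Hochberg over the 23410 probe sets. Standard errors and intervals are those of the moderated fit. The number of arrays limits the precision. The dim signal mark rests on 1190 receptor genes. The procedure was tested on simulated data. Promoter windows came from RefSeq, with 34 of the 53 genes matched. Figures were drawn with matplotlib 3.10.9 in Python 3.11.15.

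The members and the gene lists were chosen with earlier results of these data known. Each member was named, with all pool values for those at an unadjusted p under 0.05, the largest change in each role, and Porcn, Lrp6, Dvl1, Gsk3b, Ctnnb1, Apc and Axin2. Other pathway and target genes were named at an unadjusted p under 0.05. Wnt2, Wnt5b, Wnt6, Sfrp1, Fzd4, Wnt3 and Sostdc1 were given in full, and Fzd3 and Dkk3 plotted, outside this rule, after their values were seen. Of the marker lists, 11 vessel, 8 astrocyte and 7 microglia genes held 0 past the unadjusted threshold. So did the 12 of meninges and the 10 of hippocampal neurons. The 1 of 7 habenula genes that was higher, Calb2, is also in the thalamus list, and 3 of 9 oligodendrocyte genes were lower. Other array types of the study were not analysed here.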

Additional observations from a re-analysis of the deposited data

How the results depend on the processing

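Under every alternative tried, 0 of the 53 genes passed after adjustment, and their median change stayed between -0.0074 and 0.0066. The number called higher at the unadjusted threshold, 3 in the comparison as reported, was 0 in the methods' t-test, 1 after quantile normalization, 0 among probe sets above the receptor level or above the median level, 1 with all probe sets or only those of 1 symbol, and 0 when a change over 1.2-fold was also required. It lay between 0 and 3 with a pool left out, and Wnt16 was still called in the quantile and both probe set alternatives. The number called lower, 0 as reported, was 1 in the methods' t-test (Wnt6), 1 after quantile normalization (Dkk2), 1 above the median level, 1 with probe sets of a gene averaged and 1 with an intensity trend (Apc in each of these 3), 2 with array weights (Apc and Dkk2), and between 0 and 3 with a pool left out. Of the other pathway genes, 3 were called as reported, 1 above the receptor level, 0 above the median level, 5 with array weights, 0 with a change over 1.2-fold and between 2 and 5 with a pool left out. Of the target genes, 3 were called as reported and between 1 and 3 with a pool left out, an alternative that was added for the target, marker and named pathway genes after seeing the data. The filters leave fewer genes to be called, and the cause of the other shifts was not tested.

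With the replicate number as a block, 2 of the 53 genes were higher (Wnt16 and Wnt2b), and 1153 probe sets passed at the unadjusted threshold, against 1202 without it. Same-numbered pools correlated at -0.05, -0.02 and 0.06 in their deviations from the group means. These values showed no pairing by number, but with 3 pools in each group they cannot exclude one. The paper divided littermates between ethanol and saline, and whether same-numbered pools share litters was not tested.

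Of the 53 genes, 25 kept their direction in all alternatives and 28 did not. In the alternatives that reversed their direction, the largest absolute change of those 28 was 0.10. In alternatives that kept it, changes reached 0.327, for Sfrp1 with a pool left out, where it passed the unadjusted threshold. As reported, 0 of the 28 passed. Median centring gave 0.0005 for Axin1 and 0.0017 for Wnt5a. Quantile normalization gave 0.0017 for Axin1, 0.001 for Porcn and -0.0093 for Wnt10b. Array weights gave 0.0269 for Axin1, 0.0074 for Axin2, 0.0009 for Dkk4, 0.0028 for Porcn, -0.0449 for Rspo1, -0.0025 for Rspo2, -0.0086 for Sfrp4, 0.0104 for Wif1, 0.0247 for Wnt2 and -0.0274 for Wnt7a. With a pool left out, the log2 changes that crossed 0 ranged as follows: Axin1 -0.042 to 0.0523, Axin2 -0.0329 to 0.013, Ctnnb1 -0.003 to 0.0289, Dkk4 -0.0203 to 0.0062, Dvl3 -0.0402 to 0.0236, Fzd1 -0.1196 to 0.0236, Fzd3 -0.1089 to 0.0018, Fzd4 -0.0946 to 0.1324, Fzd9 -0.0336 to 0.0945, Lrp6 -0.025 to 0.079, Porcn -0.0424 to 0.0264, Rspo1 -0.04 to 0.0722, Rspo2 -0.0837 to 0.0872, Rspo3 -0.0312 to 0.0497, Rspo4 -0.0107 to 0.0561, Sfrp1 -0.0994 to 0.327, Sfrp2 -0.0808 to 0.028, Wif1 -0.0527 to 0.0325, Wnt10b -0.0099 to 0.015, Wnt2 -0.1386 to 0.0601, Wnt3 -0.0278 to 0.181, Wnt4 -0.0922 to 0.1052, Wnt5a -0.0762 to 0.0865, Wnt7a -0.0886 to 0.0797, Wnt7b -0.0393 to 0.0041, Wnt9a -0.0416 to 0.0585 and Wnt9b -0.0212 to 0.0867.

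Signal near the floor limits 19 of the 53 genes, and the 3 pools in each group limit all of them. Each pool averages its mice, so the spread between single animals was not measured.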
